A study of Mus musculus with 6 samples.

Results

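The genes described here are 10 immediate early genes, chosen by name from the deposited table: Fos, Fosb, Jun, Junb, Egr1, Atf3, Ier2, Nr4a1, Myc and Zfp36. All 10 were found among 46450 gene symbols, and all passed the filter on low values that left 12437 genes for testing. They were measured by mRNA sequencing in cardiomyocytes, the contractile cells of heart muscle, isolated from the hearts of C57BL/6 mice aged 3 months. The 6 libraries fell into 2 groups by genotype, TFEB-/- (n = 3) and wild type (WT, n = 3), and no other treatment is named. How the TFEB-/- allele was made, in which cells it is lost, the sex of the mice and whether each library came from a different animal are not given in the sources used here, so p-values measure the spread between these libraries only. The comparison of TFEB-/- with WT asks how cardiomyocyte transcripts differ when TFEB, a transcription factor of lysosome and autophagy genes, is lost. Values are the authors' CPM, read counts scaled to the same total in every library and rounded to whole numbers. The labels give 14000000 to 75000000 read pairs per library (median 21000000) but not which library had how many, so the count behind a single value is unknown.

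Immediate early genes are switched on within minutes of a stimulus, without new protein synthesis, by factors that already sit in the cell, such as serum response factor with its ETS partners and CREB. Their mRNAs are short-lived, in part because AU-rich stretches in their 3' ends recruit decay proteins, and ZFP36 (tristetraprolin), itself the product of an immediate early gene, is such a decay protein. In the heart they are known to respond to growth factors, stretch and adrenergic drive, and the enzymatic digestion used to free cells from a tissue is known to induce them. All 6 libraries came from isolated cells, so transcripts made in the heart and transcripts made during isolation cannot be told apart here.

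The promoters of 4 genes that moved together across the libraries are shown as examples. They represent 4 different products, 2 of the Fos family, 1 nuclear receptor and 1 decay protein. Jun moved with them as well, but its window, not shown, held none of the motifs searched below. Each run is the RefSeq window on GRCm38.p6 from 250 bases before the transcription start to 50 bases from it on, written 5' to 3' on the strand of the gene. Capitals mark TGACG (the core of the CREB element, on either strand, so CGTCA on the strand shown), TATAAA and the CArG box bound by serum response factor.
Fos (chr12:85473640-85473939, plus strand): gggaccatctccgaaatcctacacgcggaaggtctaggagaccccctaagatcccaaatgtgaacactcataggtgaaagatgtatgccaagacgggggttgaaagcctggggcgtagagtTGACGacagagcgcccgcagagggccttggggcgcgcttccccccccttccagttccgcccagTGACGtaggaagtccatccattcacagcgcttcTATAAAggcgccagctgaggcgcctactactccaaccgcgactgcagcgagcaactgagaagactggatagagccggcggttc
Fosb (chr7:19309996-19310295, minus strand): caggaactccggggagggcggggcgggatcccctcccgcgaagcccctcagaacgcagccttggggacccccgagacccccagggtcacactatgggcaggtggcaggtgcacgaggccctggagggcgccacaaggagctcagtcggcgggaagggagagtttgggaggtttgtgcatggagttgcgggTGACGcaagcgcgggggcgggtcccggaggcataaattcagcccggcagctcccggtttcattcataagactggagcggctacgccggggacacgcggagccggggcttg
Nr4a1 (chr15:101266596-101266895, plus strand): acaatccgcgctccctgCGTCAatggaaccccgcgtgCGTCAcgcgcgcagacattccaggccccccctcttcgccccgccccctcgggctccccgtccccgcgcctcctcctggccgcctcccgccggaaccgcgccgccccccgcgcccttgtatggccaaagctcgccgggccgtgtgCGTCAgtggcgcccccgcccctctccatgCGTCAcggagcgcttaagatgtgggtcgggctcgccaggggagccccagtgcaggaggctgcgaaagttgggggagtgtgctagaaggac
Zfp36 (chr7:28379179-28379478, minus strand): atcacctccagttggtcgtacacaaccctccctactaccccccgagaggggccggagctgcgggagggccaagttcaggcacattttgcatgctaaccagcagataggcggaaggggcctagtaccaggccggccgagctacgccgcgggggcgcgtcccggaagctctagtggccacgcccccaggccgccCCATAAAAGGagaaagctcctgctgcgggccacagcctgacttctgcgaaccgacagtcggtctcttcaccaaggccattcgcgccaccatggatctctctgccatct

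Windows were found for 7 of the 10 genes, and not for Egr1, Ier2 and Myc. TGACG was present in 5 of these 7, Fos, Fosb, Junb, Atf3 and Nr4a1, against 20.8% of 32851 windows of the same length. It occurred at 2 places in the Fos window and at 4 in the Nr4a1 window. The full palindrome TGACGTCA was in 0 of the 7 and in 1.79% of all windows. The CArG box was in 1 of the 7, that of Zfp36, at position -58 from the start, against 1.63% of all windows. The element recognised by EGR proteins (GCGGGGGCG or GCGTGGGCG) was in 3 of the 7, those of Fosb, Nr4a1 and Zfp36, against 3.47% of all. TATAAA was in 2 of the 7 (13.6% of all), the ETS core GGAAG in 5 of the 7 (71.4% of all), and the AP-1 element TGANTCA in 0 of the 7 (7.81% of all). Each motif was searched on both strands, every TGACGTCA also counts as TGACG, and a match describes letters only. Elements more than 250 bases before the start lie outside the windows. Near variants, such as TGACATCA in the Jun window, are not matched. A missing match therefore does not show that a gene lacks the element.

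The genes were compact. Their longest coding transcripts in GENCODE M21 had 1 to 8 exons (median 2.5) and spanned 1522 to 20527 bases of the genome (median 4215), whereas 11923 tested genes had a median of 9 exons and 22699 bases. The heptamer TATTTAT, the DNA form of the AU-rich core that ZFP36 binds, was found in the 3' untranslated region of 5 of the 10, Fos, Fosb, Jun, Atf3 and Zfp36, against 30.1% of tested genes. It was also present in 8 of 10 tested mRNAs that ZFP36 is known to destabilise, which are taken up again with Zfp36. A site from each of 2 early genes and 2 chemokine mRNAs is shown, since these sets moved oppositely in TFEB-/- 2, with 8 bases on either side and the heptamer in capitals.
Fos: tttcaattTATTTATtaagatgg
Zfp36: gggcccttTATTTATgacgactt
Cxcl1: gagggtccTATTTATttatgtat
Cxcl2: agttcactTATTTATttatctat

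The labels were checked before these genes were compared. Tfeb was at 6, 5 and 7 CPM in TFEB-/- libraries 1 to 3, against 17, 30 and 23 CPM in WT libraries 1 to 3, and its log2 fold change was -1.85 with an SE of 0.24 (limma, Benjamini-Hochberg adjusted p = 0.0267). Its adjusted p was 0.0589 to 0.109 without WT 2, without WT 3 or without any 1 of the TFEB-/- libraries. The summed CPM of 14 cardiomyocyte markers, led by Myh6 and Actc1, ran from 87638 to 108600 in TFEB-/- and from 71694 to 97352 in WT. Transcripts of the mitochondrial genome took up 22.2% to 30.3% of a TFEB-/- library and 30.7% to 44.6% of a WT library, and over all tested genes the log2 fold changes had a median of 0.24, a shift against which the values below are set. A single library stood apart in the immediate early genes: TFEB-/- 2 was the lowest of the 6 libraries for 8 of the 10, against 3.36% of all tested genes. On this scale WT 3 was lowest for 5174 of 12437 genes, which leaves few for any other library. Scaled by median ratios or without mitochondrial transcripts, the share of all genes was 8.76% or 11.5%, and the count stayed at 8 of the 10. Results are therefore given with and without TFEB-/- 2, a choice made from these same values.

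Of the 10 genes, the AP-1 and related genes Fosb, Atf3 and Jun had the widest ratios between TFEB-/- libraries, 3.44, 3.31 and 3.09. Fos, whose product pairs with Jun proteins to form the classical AP-1 dimer, was at 1188, 526 and 1232 CPM in TFEB-/- libraries 1 to 3, against 761, 629 and 577 CPM in WT libraries 1 to 3. TFEB-/- 1 and 3 were above every WT library and TFEB-/- 2 was below every one. Fosb, a close relative of Fos, was at 136, 57 and 196 CPM in TFEB-/-, against 70, 77 and 82 CPM in WT, with TFEB-/- 2 again below all of WT and WT itself within a narrow range. Jun, the partner that can also form dimers with itself, was at 662, 254 and 785 CPM in TFEB-/-, against 373, 298 and 345 CPM in WT. As with Fos, TFEB-/- 2 lay below, and the other two TFEB-/- libraries above, all of WT.

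Junb, a Jun relative that often restrains Jun, was at 553, 239 and 518 CPM in TFEB-/-, against 237, 302 and 332 CPM in WT. Here TFEB-/- 2 lay just above WT 1, the lowest library. The gene (GRCm38 chromosome 8, 84974484 to 84978718, minus strand) overlaps Prdx2 on the opposite strand, and since it is not stated that the counting used strand, reads of the overlapping stretch are uncertain. Atf3, a stress-induced member of the same bZIP superfamily that acts mainly as a repressor, was at 623, 224 and 742 CPM in TFEB-/-, against 603, 285 and 254 CPM in WT. WT 1 reached nearly the level of TFEB-/- 1, and the ratio of the highest to the lowest WT library was 2.37, so for this gene both groups were spread out.

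**Figure D1:**
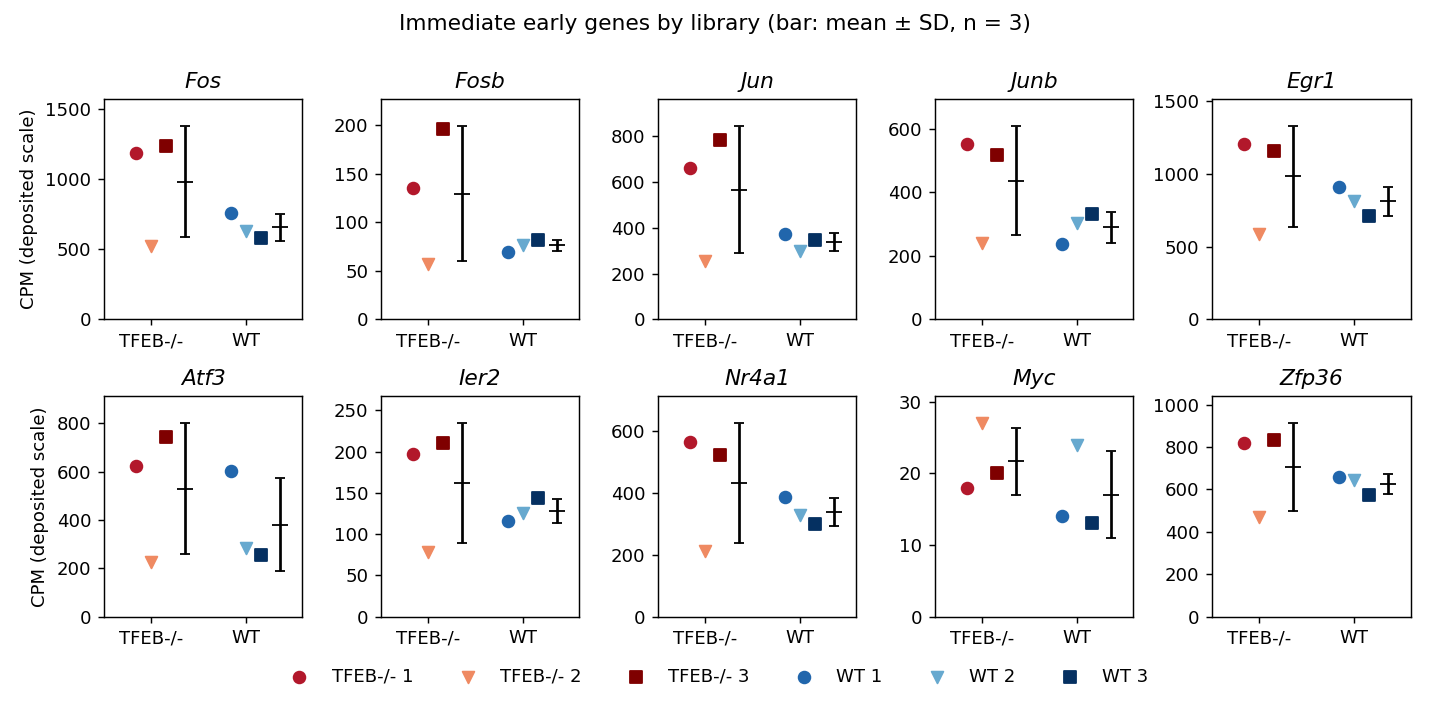
CPM of the 10 immediate early genes in each library, TFEB-/- left and WT right in each panel, with axes from 0 and black bars for the mean ± SD of 3 libraries. TFEB-/- 1 and 3 are the highest pair in 9 panels, TFEB-/- 2 is the lowest point in 8, and Myc has TFEB-/- 2 at the top.

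The zinc finger activator Egr1 (ENSMUSG00000038418), a standard readout of ERK signalling, was at 1205, 585 and 1161 CPM in TFEB-/- libraries 1 to 3, against 910, 811 and 714 CPM in WT libraries 1 to 3. Nr4a1, an orphan nuclear receptor induced by calcium and cyclic AMP, was at 562, 210 and 521 CPM in TFEB-/-, against 387, 328 and 297 CPM in WT. Ier2, a small nuclear protein named for its early response, was at 197, 78 and 210 CPM in TFEB-/-, against 116, 125 and 144 CPM in WT. In all 3 genes TFEB-/- 2 lay below every WT library and the other two TFEB-/- libraries above.

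Myc, a growth regulator that is induced somewhat later than Fos in many cells, did not follow. It was at 18, 27 and 20 CPM in TFEB-/-, against 14, 24 and 13 CPM in WT, and its highest library was TFEB-/- 2. The groups overlapped through WT 2, and a rounding step of 1 CPM is a visible part of these values.

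Zfp36, the decay factor, was at 819, 468 and 832 CPM in TFEB-/- libraries 1 to 3, against 660, 644 and 574 CPM in WT libraries 1 to 3. Its ratio between the highest and lowest TFEB-/- library was 1.78, the smallest of the 9 genes other than Myc. A list of 14 inflammatory mRNAs that ZFP36 is known to destabilise ran the other way in TFEB-/- 2. With log2 values centred on each gene's own mean, the median of its tested genes was 1.03 there, against -0.64 for the early genes. In TFEB-/- 1 and 3 the list was at -0.07 and -0.02 and the early genes at 0.58 and 0.60. In WT 1 and WT 2 both were negative, the list at -0.56 and -0.41, the early genes at -0.09 and -0.17. In WT 3 the list was at 0.18 and the early genes at -0.27. Of the 10 tested genes of this list, 9 were highest in TFEB-/- 2, against 5.48% of all tested genes. With median-ratio scaling 9 were still highest there (14% of all). Of these 9, 7 were at only 4 to 7 CPM in TFEB-/- 2. Macrophage and monocyte markers moved with this list, summing to 48, 56 and 45 CPM in TFEB-/- libraries 1 to 3 and to 23 to 33 CPM in WT, and 5 of 10 tested were highest in TFEB-/- 2 (7 of 10 with median-ratio scaling). Their part in the levels of these mRNAs was not tested.

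The chemokine mRNA Cxcl1, one of the 2 of that list with the highest mean CPM, was at 18, 57 and 28 CPM in TFEB-/-, against 16, 19 and 40 CPM in WT. The other, the early response gene Ier3, was the exception and was not highest in TFEB-/- 2. It was at 78, 76 and 106 CPM in TFEB-/- and 48, 75 and 58 CPM in WT. Cxcl2, a second neutrophil chemokine picked out after its values were seen, was at 7, 19 and 8 CPM in TFEB-/- and 6, 7 and 12 CPM in WT. Il1b, the interleukin 1 beta gene, also picked out afterwards, was at 3, 7 and 3 CPM in TFEB-/- and 2, 2 and 3 CPM in WT. Between the genotypes 0 of the 10 passed the limma threshold (4.44% of all) and 0 had an unadjusted p below 0.05 (23.3% of all). The median log2 fold change of the 10 was 0.53, beside 0.24 for all tested genes, and all 10 lay above the 0.24. Most of them were at a few CPM, where rounding is a coarse step. Whether Zfp36 bears on the levels of these mRNAs was not tested.

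**Figure D2:**
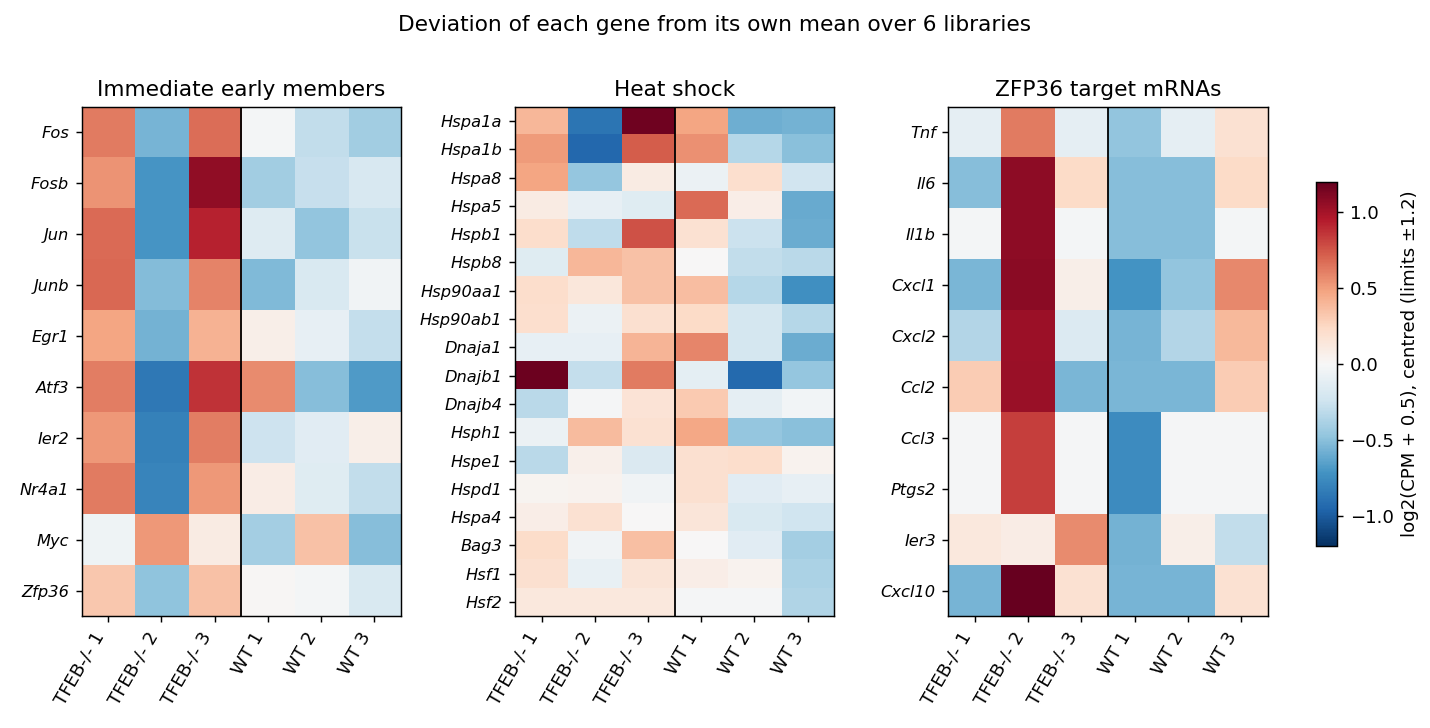
Deviation of log2(CPM + 0.5) from the mean of each gene over the 6 libraries, red above and blue below, for the 10 immediate early genes, 18 heat shock genes and 10 tested ZFP36 target mRNAs, with colours limited at 1.2 in either direction. The TFEB-/- 2 column is blue for all early genes but Myc and red for the ZFP36 targets, with Ier3 close to its own mean.

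Between the genotypes no immediate early gene passed the threshold. Of all tested genes 4.44% were called at an adjusted p below 0.05 in limma (3.92% higher and 0.523% lower), and of the 10 genes 0 were called. An unadjusted p below 0.05 was found for 23.3% of all genes and for 0 of the 10. The groups did not overlap in 23.4% of tested genes (higher in 21.2%) and in 0 of the 10. All 10 log2 fold changes of CPM + 0.5 were positive on the deposited scale, with a median of 0.39 beside 0.24 for all genes. Of the 10, 7 lay above the median of all genes, Nr4a1 only just (0.2351 beside 0.2350). Over the alternative settings that count ran from 4 without TFEB-/- 3 to 9 without TFEB-/- 2.

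The fold changes were wide in their errors. Jun averaged 567 ± 278 CPM in TFEB-/- and 338.7 ± 37.9 CPM in WT (SD, n = 3 each), 1.51-fold higher on the log scale with a 95% interval from 0.652 to 3.49 (adjusted p = 0.477, limma). For Fosb the fold was 1.51 (0.636 to 3.57) and for Fos 1.41 (0.711 to 2.78), with adjusted p-values of 0.494 and 0.466 in limma. Zfp36 had the narrowest interval, 1.09-fold (0.690 to 1.73, adjusted p = 0.780, limma). Atf3 had the widest, from 0.452 to 3.93 around 1.33-fold. Intervals this wide do not show that the genotypes are alike. On scales that correct the shift of all genes, by median ratios or without mitochondrial transcripts, Egr1, Ier2 and Zfp36 had log2 fold changes just below 0 (-0.028, -0.030 and -0.11 with median ratios).

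The result turned on TFEB-/- 2. Without it, 9 of the 10 genes, all but Myc, were higher in both remaining TFEB-/- libraries than in every WT library, against 33.9% of all tested genes, and the median log2 fold change of the 10 was 0.79 beside 0.27 for all genes. Of the 10, 8 then had an unadjusted p below 0.05 (22.8% of all were higher at that level), and 1, Jun, passed the adjusted threshold in limma (log2 fold change 1.09, SE 0.14, adjusted p = 0.0438), where 4.88% of all genes were called and 4.15% were called higher. Fos (log2 fold change 0.89), Fosb (1.09), Junb (0.90), Ier2 (0.67), Nr4a1 (0.69) and Zfp36 (0.40) had adjusted p-values of 0.0694 to 0.0966 without TFEB-/- 2, a fit in which the lone pair of TFEB-/- libraries is assumed to vary like the WT libraries. When TFEB-/- 1 or 3 was left out, 0 of the 10 passed and the median log2 fold change of the 10 was 0.25 beside 0.17 for all genes without TFEB-/- 1, and 0.15 beside 0.25 for all genes without TFEB-/- 3. The labels give no ground for setting TFEB-/- 2 aside. It was singled out because it was lowest for most of these same genes, so leaving it out favours higher folds and small p-values for them. The shares of all genes were not selected in that way. The counts without TFEB-/- 2 are therefore a description and no test of genotype.

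**Figure D3:**
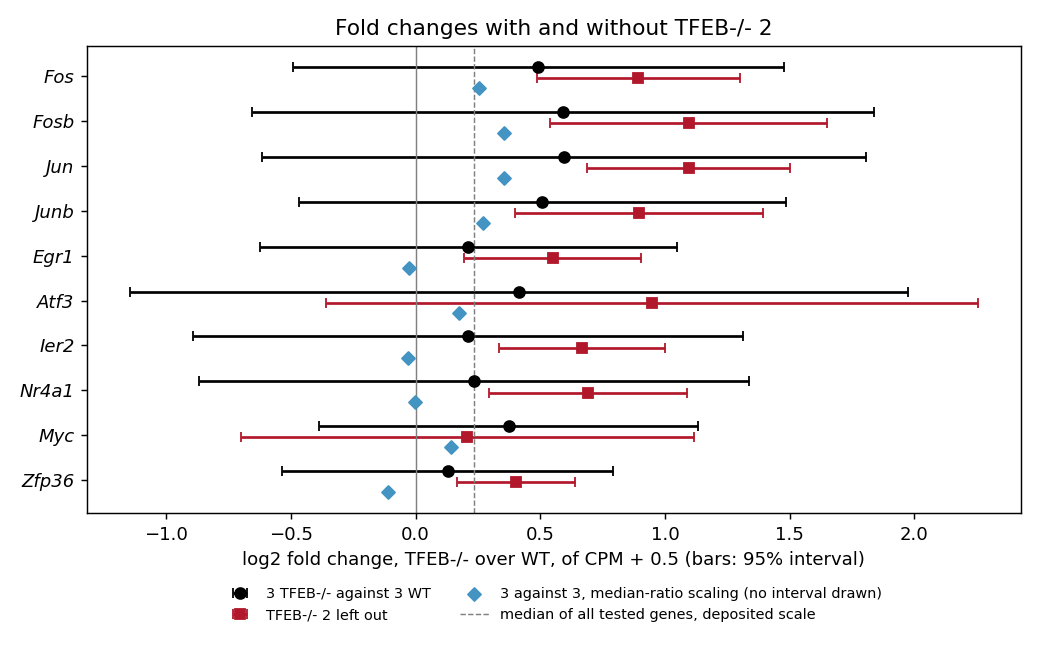
Log2 fold change of CPM + 0.5, TFEB-/- over WT, for each gene with all 6 libraries (black circles), without TFEB-/- 2 (red squares) and with median-ratio scaling (blue diamonds), where bars are 95% intervals of the limma fit. Every black interval holds 0, while the red intervals exclude 0 for 8 genes, with Atf3 and Myc as the exceptions. The library left out was singled out by the values of these same genes.

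The spread within TFEB-/- was wider for these genes than for most others, and that within WT was not. It largely restates the low values of TFEB-/- 2. TFEB-/- 1 and 3 lay close for Fos (1188 and 1232 CPM), Egr1 (1205 and 1161 CPM) and Zfp36 (819 and 832 CPM). They were further apart for Fosb (136 and 196 CPM). The highest TFEB-/- library was at least 2-fold above the lowest in 8 of the 10 genes, against 5.22% of the 8585 genes averaging 5 CPM or more. Among WT libraries that was so for 1 of the 10, Atf3, against 6.06% of those genes. The median ratio of highest to lowest was 2.51 for the 10 genes and 1.28 for all genes in TFEB-/-, and 1.29 and 1.35 in WT.

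The order of the libraries was shared as well. TFEB-/- 2 was the lowest library for 8 of the 10 genes and for 3.36% of all tested genes, and TFEB-/- 1 and 3 were the highest pair for 9 of the 10 and for 23.9% of all. With median-ratio scaling the counts were 8 (8.76% of all) and 6 (13.1% of all), and without mitochondrial transcripts 8 (11.5% of all) and 7 (13.6% of all). These orders were chosen after the values were seen and are given as a description, and the 10 genes, measured in the same 6 libraries, are not independent of each other.

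A wider list of 53 other immediate and delayed early genes shared the low values of TFEB-/- 2 in part. TFEB-/- 2 was lowest for 18 of the 53 (3.36% of all tested genes), and for 20 with median-ratio scaling (8.76% of all). TFEB-/- 1 and 3 were the highest pair for 18 (23.9% of all), but for 8 with median-ratio scaling or without mitochondrial transcripts (13.1% and 13.6% of all), a share near the background. None was called between the genotypes in limma (4.44% of all), and 4 had an unadjusted p below 0.05 (23.3% of all). The median log2 fold change was 0.16, below the 0.24 of all genes. Btg2, an antiproliferative gene and one of the 2 with the highest mean CPM, was at 580, 252 and 664 CPM in TFEB-/-, against 668, 420 and 381 CPM in WT. The other, Cyr61, a secreted matricellular protein, was at 487, 236 and 707 CPM in TFEB-/-, against 562, 423 and 268 CPM in WT. In both genes TFEB-/- 2 was the lowest library and WT 1 lay above TFEB-/- 1.

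Arc, best known as an activity-regulated gene of neurons, had the largest log2 fold change of that list, 2.85 (adjusted p = 0.202, limma), and was picked out after its values were seen. It was at 220, 66 and 462 CPM in TFEB-/-, against 19, 80 and 11 CPM in WT, so that TFEB-/- 2 fell below WT 2. When the test was limited to genes averaging 5 CPM or more its adjusted p was 0.0337 in limma. In every other alternative setting it was higher, from 0.128 with median-ratio scaling to 0.452 without TFEB-/- 1. Egr2, the relative of Egr1 and the most negative of that list, was at 11, 4 and 8 CPM in TFEB-/- and 13, 16 and 15 CPM in WT (log2 fold change -0.99, adjusted p = 0.204, limma), with no overlap between the groups and TFEB-/- 2 lowest. Nr4a3, the relative of Nr4a1, was at 25, 17 and 31 CPM in TFEB-/- and 55, 26 and 24 CPM in WT. Of the 8 tested genes of the EGR and NR4A list 0 passed in limma (4.44% of all) and 2 had an unadjusted p below 0.05 (23.3% of all).

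Among other bZIP factors that can pair with AP-1 proteins, 0 of 18 passed in limma (4.44% of all tested genes). An unadjusted p below 0.05 was found for 2 (23.3% of all). Jund, the constitutive member of the Jun family, was at 127, 63 and 154 CPM in TFEB-/-, against 72, 75 and 94 CPM in WT, with the TFEB-/- libraries placed around WT as they were for Jun. Atf4, the effector of the integrated stress response, was at 154, 112 and 173 CPM in TFEB-/-, against 130, 116 and 92 CPM in WT, with WT 3 lowest. Of 11 tested genes of the MYC network 0 passed in limma and 1 had an unadjusted p below 0.05 (the same 4.44% and 23.3% of all). TFEB-/- 2 was lowest for 1 of them (3.36% of all). The MYC antagonist Mxd4 was at 54, 48 and 50 CPM in TFEB-/- and 37, 37 and 42 CPM in WT, and the MYC partner Max was at 29, 33 and 45 CPM in TFEB-/- and 23, 36 and 15 CPM in WT.

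The upstream kinases and factors were close to the background in how often TFEB-/- 2 was lowest. In 33 genes from RAF and the MAP kinases to SRF, its partners and CREB, TFEB-/- 2 was lowest for 0, against 3.36% of all tested genes, and for 4 with median-ratio scaling (8.76% of all) or without mitochondrial transcripts (11.5% of all). TFEB-/- 1 and 3 were the highest pair for 11 of the 33 (23.9% of all), and for 7 with median-ratio scaling (13.1% of all). Without mitochondrial transcripts they were the highest pair for 6 (13.6% of all). Of these 33 genes 1 was called higher in limma (3.92% of all) and 10 had an unadjusted p below 0.05 (23.3% of all). Their median log2 fold change was 0.22 beside 0.24 for all genes. The called gene was Map2k3, a kinase that activates p38, at 106, 110 and 111 CPM in TFEB-/- and 77, 72 and 64 CPM in WT (log2 fold change 0.62, SE 0.08, adjusted p = 0.0267). With median ratios its log2 fold change was 0.38 and its adjusted p 0.0762 in limma, and the call was also lost without mitochondrial transcripts, with quantile normalization and in 4 of the 6 fits with a library left out, those without TFEB-/- 1, 2 or 3 or WT 2. Srf itself was at 155, 120 and 144 CPM in TFEB-/- and 112, 112 and 75 CPM in WT, and is given because its product binds the CArG box.

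Of 12 tested MAP kinase phosphatases and feedback inhibitors, 0 passed in limma (4.44% of all) and 0 had an unadjusted p below 0.05 (23.3% of all). Dusp1, which is itself induced early and switches off p38 and JNK, had the order of Fos, at 279, 109 and 347 CPM in TFEB-/- and 232, 201 and 186 CPM in WT. Dusp8, the next by mean CPM, was at 52, 34 and 52 CPM in TFEB-/- and 52, 38 and 31 CPM in WT. Of 15 tested relatives of ZFP36 and mRNA decay factors 0 passed in limma and 2 had an unadjusted p below 0.05, beside the same shares of all. Zfp36l1, a relative with the same RNA-binding fingers, was at 153, 95 and 147 CPM in TFEB-/- and 123, 95 and 120 CPM in WT, while Cnot1, the scaffold of the deadenylase complex, was at 40, 35 and 33 CPM in TFEB-/- and 48, 36 and 30 CPM in WT.

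Heat shock genes, which cell dissociation is also known to induce, shared the low values of TFEB-/- 2 in some members. Of 18 tested, TFEB-/- 2 was lowest for 3 (3.36% of all tested genes), and for 5 with median-ratio scaling (8.76% of all). TFEB-/- 1 and 3 were the highest pair for 4 (23.9% of all), and for 1 with median-ratio scaling (13.1% of all), not above the background. Between the genotypes 0 of the 18 passed in limma (4.44% of all) and 0 had an unadjusted p below 0.05 (23.3% of all). The inducible chaperone Hspa1a, picked out after its values were seen, was at 173, 71 and 294 CPM in TFEB-/- and 182, 87 and 88 CPM in WT, with WT 1 slightly above TFEB-/- 1, an order close to that of Atf3. The cytosolic chaperone Hsp90ab1 was at 1400, 1158 and 1383 CPM in TFEB-/- and 1422, 1049 and 955 CPM in WT. Hspa8, the constitutive relative of Hspa1a, was at 1551, 811 and 1198 CPM in TFEB-/- and 1068, 1288 and 952 CPM in WT.

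**Figure D4:**
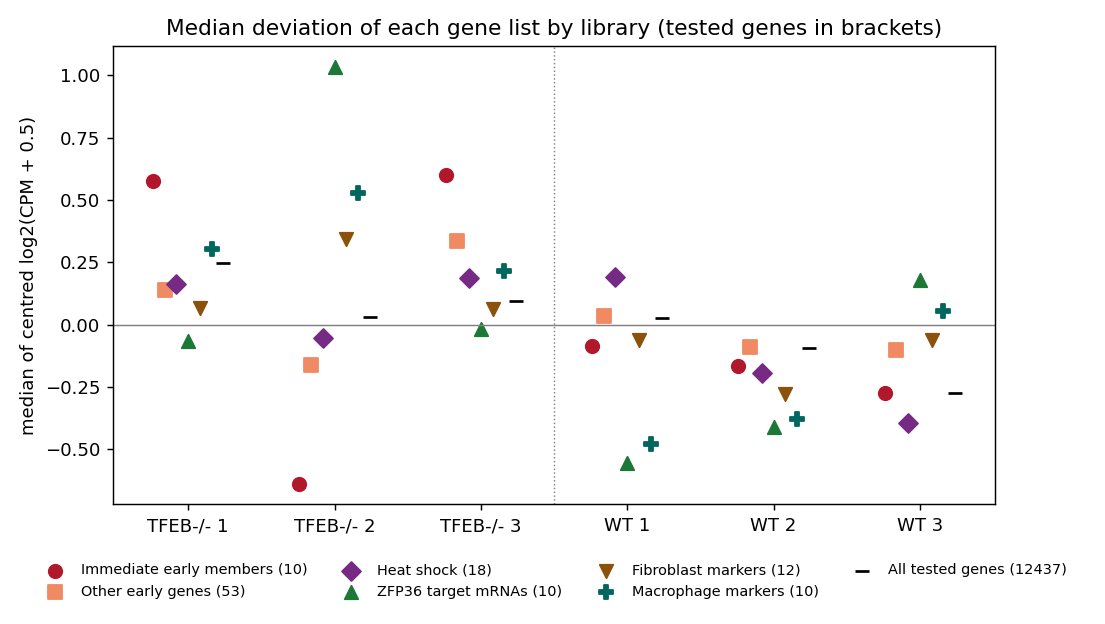
Median over each gene list of log2(CPM + 0.5), centred on each gene's own mean, in each library, TFEB-/- left and WT right, with the number of tested genes in the legend. In TFEB-/- 2 the immediate early genes sit at -0.64 and the ZFP36 target mRNAs at 1.03, while all tested genes sit at 0.03.

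The genes that followed the 10 most closely were ranked by the root mean squared difference of centred log2 values over the 6 libraries, among the 8575 others averaging 5 CPM or more. The nearest to the mean of the 10 was Rhob, a small GTPase gene that is itself an early response gene, with a difference of 0.095 on the log2 scale, beside a median of 0.39 for all these genes. Rhob was at 219, 130 and 281 CPM in TFEB-/- and 162, 154 and 149 CPM in WT. Gadd45g, a stress-induced growth arrest gene, came next, also from the list of other early genes, at 204, 98 and 210 CPM in TFEB-/- and 142, 126 and 94 CPM in WT. Spg11, Lime1 and the cardiac transcription factor Hand2 followed, with differences of 0.135, 0.136 and 0.137, but Spg11 and Lime1 were at 4 to 10 CPM, where rounding to 1 CPM is a coarse step. The 10 genes did not all lie close to their own mean. Fos was at 0.098 from it and Fosb at 0.241, but Atf3 at 0.386 and Myc at 0.597, near or beyond the median of the other genes. The nearest to Fos were Cnnm3 (0.093), Gadd45g (0.10) and Prkag2 (0.122), and of the 10 genes themselves Egr1 lay at 0.16 from Fos and Myc at 0.647.

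Several other cell types of the heart express immediate early genes, so their markers were summed in each library. In bulk RNA, fewer cells of a type and less RNA per cell cannot be told apart. The 12 fibroblast markers, led by Gsn and Dcn, summed to 386, 474 and 399 CPM in TFEB-/- libraries 1 to 3 and to 272 to 310 CPM in WT. In limma 2 were called higher (3.92% of all tested genes), Gsn and Pdgfra. Pdgfra was at only 3 CPM in every TFEB-/- and 2 CPM in every WT library. The 14 macrophage and monocyte markers, led by Lyz2, summed to 48, 56 and 45 CPM in TFEB-/- and to 23 to 33 CPM in WT. Of these markers 0 were called (4.44% of all), and Cx3cr1 and Ccr2 were at 0 in every library. TFEB-/- 2, lowest in most immediate early genes, was thus the highest library of the 6 in both sums, and the highest for 8 of 12 fibroblast and 5 of 10 tested macrophage markers, against 5.48% of all genes.

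The 14 endothelial markers, led by Fabp4 and Eng, summed to 489 to 608 CPM in TFEB-/- and 550 to 641 CPM in WT. Of these 0 were called (4.44% of all tested genes). The 10 smooth muscle and pericyte markers, led by Abcc9 and Acta2, summed to 568 to 579 CPM in TFEB-/- and 385 to 474 CPM in WT. Of these 1, Cspg4, was called higher (3.92% of all). Markers of T and B cells were at 0 in all TFEB-/- libraries and at 0 to 2 CPM in WT, and red blood cell markers at 6 to 10 CPM in TFEB-/- and 5 to 35 CPM in WT. The mitochondrial share, 22.2%, 30.3% and 25.3% in TFEB-/- libraries 1 to 3, against 30.7%, 33.9% and 44.6% in WT (exact two-sided permutation p = 0.1, the smallest that 3 against 3 allow), was also highest within TFEB-/- in library 2. The part of these shifts in the pattern of the immediate early genes was not tested, beyond the values above that leave out mitochondrial transcripts.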

How the data were processed

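The mRNA of cardiomyocytes was sequenced in 6 libraries, 3 TFEB-/- and 3 WT. The deposited table holds a score per gene and library, which its name gives as kallisto CPM: counts that the authors scaled to a common total and rounded to whole numbers. Library sums ran from 999505 to 999655. Scaling by transcript length is not stated, so levels are not compared between genes. The submitters' processing notes name kallisto, other aligners and GRCm38, without roles. Names turned into dates (26) or missing (303) were restored or replaced through their IDs, and shared symbols were summed.

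The 12437 genes that reached 1 CPM in 3 or more libraries entered a limma 3.58.1 fit (R 4.3.3) of log2(CPM + 0.5) on genotype alone, with its variance trend. Two-sided p-values received the Benjamini-Hochberg adjustment across these genes, and 0.05 was the threshold. Adding 0.5 CPM understates the change of low genes. The code was first run on simulated data. Named genes are all 10 members, Tfeb, the genes of each of 9 other lists that passed or else its 2 with the highest mean CPM, up to 2 leading markers per cell type, and the nearest genes by pattern. Exceptions are marked as picked after their values were seen. The members and lists were chosen with earlier results of these data known. The 15 alternatives cover pseudocount, filter, scaling, replicate block, robust hyperparameters and each library left out.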

Additional observations from a re-analysis of the deposited data

How the results depend on the processing

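Of the 10 genes, 0 passed the threshold in 14 of 15 alternatives, and 1, Jun, passed without TFEB-/- 2. That library was singled out by the values of these same genes. Leaving out each library gave 0 to 1 genes past the threshold, 0 to 9 whose groups did not overlap, and log2 fold changes of Jun from 0.28 to 1.09. The sign of small values turned with scaling: with median ratios the log2 fold changes were -0.028 for Egr1, -0.030 for Ier2, -0.0041 for Nr4a1 and -0.11 for Zfp36, without mitochondrial transcripts -0.014 for Egr1, -0.016 for Ier2 and -0.10 for Zfp36, and with quantile normalization -0.030 for Ier2 and -0.057 for Zfp36. With a library left out, Ier2 ranged from -0.043 to 0.67, Nr4a1 from -0.019 to 0.69 and Zfp36 from -0.013 to 0.40. Fos, Fosb, Jun, Junb, Atf3 and Myc stayed positive in all 15.

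Over all genes 487 were higher and 65 lower. Lower genes numbered 200 with median ratios, 188 without mitochondrial transcripts and 172 with quantile normalization, and higher genes 780 with robust hyperparameters. Leaving out each library gave 248 to 516 higher and 52 to 91 lower genes. With the replicate block 159 were higher and 26 lower, and 0 of the 10 genes passed. The calls of Tfeb and Map2k3 were lost with that block (adjusted p = 0.112 and 0.113, limma). Same-numbered libraries deviated with correlations of 0.14, -0.05 and 0.09, and not every library correlated best with its own number, so the numbers were not taken to pair them. Depth is unknown, and rounding limits values of a few CPM.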
